A study of Homo sapiens with 8 samples.

Results

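The genes described here are 41 interferon-stimulated effector genes, the genes whose products carry out the antiviral response that interferons switch on. They were listed by name and known function, with no rule on their measured values, from the 54628 genes counted, though earlier results of these data were known. All 41 had enough counts to be tested. They hold 6 families, which are OAS (OAS1, OAS2, OAS3 and OASL), MX (MX1 and MX2), IFIT (IFIT1, IFIT2, IFIT3 and IFIT5), IFITM (IFITM1, IFITM2 and IFITM3), GBP (GBP1, GBP2 and GBP3) and SAMD9 (SAMD9 and SAMD9L). The others are genes of the ISG15 system (ISG15, UBE2L6, HERC5, HERC6 and USP18) and single genes such as BST2, IFI6, IFI44L and RSAD2.

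Messenger RNA was sequenced in 8 libraries of IMR90-hTERT, a human lung fibroblast line that carries telomerase and a pInducer20 vector from which doxycycline switches on an N-terminally Flag-tagged YAP5SA. YAP5SA is a form of the transcriptional coactivator YAP that the Hippo kinases can no longer restrain. The 4 groups, of 2 libraries each, were proliferating cells without doxycycline, proliferating cells with it, bleomycin-induced senescent cells without doxycycline and such senescent cells with it. All cells carried the vector and were kept in 3% oxygen. The senescent groups had bleomycin, which breaks DNA strands, for 24 h at 10 ug/ml, and senescence was assessed after 9 days. Doxycycline was given at 1 ug/ml for 11 days. The times given do not fix when it began relative to bleomycin. A weaker rise and a later fall in senescent cells thus cannot be told apart. Falls and shares kept below compare senescent groups with and without doxycycline. No group received doxycycline without the transgene, so the effects of the drug and of YAP5SA cannot be told apart, and "doxycycline" below stands for both. The line is a single one, and the labels do not say that replicates were separate cultures, so p-values measure the spread between these libraries, which may be technical.

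Interferons bind receptors whose JAK kinases activate transcription factors. A complex with STAT2 and IRF9 binds the interferon-stimulated response element in the promoters of target genes, while interferon gamma acts through gamma-activated sites. The products act at many steps of infection: the OAS enzymes sense double-stranded RNA and switch on RNase L, the MX proteins are dynamin-like GTPases that trap viral particles, the IFIT proteins bind viral RNA ends, the IFITM proteins block fusion of viruses with cell membranes, the GBP proteins are GTPases that attack vacuoles and membranes of pathogens, and SAMD9 and SAMD9L restrict poxviruses. Fibroblasts that turn senescent after DNA damage are known to express many of these genes.

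The promoter sequences were searched for the 2 kinds of site named above. The genes were chosen as interferon-stimulated, so a high share of such sites is in part built into the choice. RefSeq windows from 250 bases before to 50 bases after a start (GRCh38.p14) were at hand for 34 of the 41 genes. The core of the interferon-stimulated response element, taken as GAAA on each side of any 2 bases on either strand, was present in 26 of the 34 (76.5%). Among all 35116 windows of the same length 3.57% held it, and 4.38% of all gene symbols had such a window. The core of a gamma-activated site, TTCNNNGAA, which reads alike on both strands, was found in 9 of the 34 (26.5%), against 9.38% of all symbols. The stretches printed here are the parts of 9 promoters around the response element cores, 1 or more from each of the MX, OAS, IFIT, IFITM, GBP and SAMD9 families and from ISG15, IFI6 and BST2. Each is read 5′ to 3′ on the gene's own strand, and capitals mark the cores. Cores may overlap, and TTTC on each side of any 2 bases is the core on the other strand.
ISG15: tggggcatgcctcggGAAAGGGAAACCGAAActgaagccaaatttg
IFI6: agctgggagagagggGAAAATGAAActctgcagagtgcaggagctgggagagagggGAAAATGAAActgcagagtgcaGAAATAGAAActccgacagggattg
BST2: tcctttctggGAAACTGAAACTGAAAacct
OAS3: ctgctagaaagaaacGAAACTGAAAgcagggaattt
IFIT1: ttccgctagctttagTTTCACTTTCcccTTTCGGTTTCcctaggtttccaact
IFITM1: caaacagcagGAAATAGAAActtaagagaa
MX1: ggtcactctgTTTCTCTTTCcgtgaataaa
GBP1: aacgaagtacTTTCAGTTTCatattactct
SAMD9: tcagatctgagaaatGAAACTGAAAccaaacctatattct

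These stretches lie upstream of a RefSeq start, at chr1:1013369-1013414 (plus strand, ISG15), chr1:27672261-27672363 (minus, IFI6), chr19:17405741-17405770 (minus, BST2), chr12:112938316-112938351 (plus, OAS3), chr10:89392492-89392544 (plus, IFIT1), chr11:313990-314019 (plus, IFITM1), chr21:41431844-41431873 (plus, MX1), chr1:89065316-89065345 (minus, GBP1) and chr7:93118091-93118130 (minus, SAMD9). In GENCODE v29 the short stretches of IFITM1, MX1 and GBP1 also fall in an untranslated exon of a longer transcript of the same gene, and that of BST2 falls in exons of its neighbours BISPR and MVB12A. The other 5 were cut so as to lie in no untranslated exon of a coding transcript. Where every upstream core lay in such an exon, the first was printed with short flanks. The printed stretches of ISG15, BST2 and IFIT1 hold 2 cores each and that of IFI6 holds 3. In ISG15 and BST2 the 2 cores overlap and share a GAAA. Those of OAS3, IFITM1, MX1, GBP1 and SAMD9 hold 1 core, though the full windows of OAS3 and IFITM1 hold 2 each. Genes with and without a core in their windows had close medians. With bleomycin and no doxycycline the median log2 change was 3.33 over the 26 with a core and 3.26 over the 8 without, and with doxycycline in senescent cells the medians were -1.50 and -1.46. The 8 without a core include OAS1, the gene with the largest fitted rise.

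Total counts per library ran from 33627708 to 39692162, and levels below are CPM, the counts per 1000000 counts of a library after TMM scaling (n = 2 per group). YAP1, whose count adds transgene to endogenous reads, was at 198 and 195 CPM in proliferating cells and 190 and 238 CPM with doxycycline (edgeR adjusted p = 0.43), so it does not by itself mark the treated proliferating libraries, while it rose in senescent cells from 190 and 223 to 291 and 287 CPM. All 8 fibroblast markers were expressed, with sums of 26610 to 26830 CPM in proliferating cells, 18590 to 18860 CPM with doxycycline, 25950 to 26960 CPM in senescent cells and 12420 to 14870 CPM in those with doxycycline. In senescent cells the means of COL1A1 and COL1A2 were 11510 and 6729 CPM without doxycycline and 3763 and 2279 CPM with it. COL3A1, THY1 and PDGFRB were also lower with it. VIM, DCN and LUM were higher, LUM with means of 55.5 and 203 CPM. Proliferation markers summed to 898 to 924, 578 to 620.5, 72.8 to 98.5 and 38.7 to 39.3 CPM in the same order of groups as the fibroblast sums. The senescence markers CDKN1A and CDKN2A summed to 335 to 336, 387 to 453, 1556 to 1743 and 1188 to 1200 CPM, most of it CDKN1A. CDKN2A alone had group means of 11.6, 42.4, 29.15 and 52.6 CPM. In senescent cells it was thus higher with doxycycline, while CDKN1A was lower, with means of 1621 CPM without doxycycline and 1141 CPM with it. Mitochondrially encoded transcripts took 5.59% and 5.94%, 7.05% and 6.88%, 6.55% and 5.97%, and 3.82% and 3.31% of counts. Of 10 leukocyte markers 9 stayed under 1 CPM in every library, PTPRC among them, and CD68 made up most of a sum that was 124 to 169 CPM in senescent cells and 52.3 to 72.3 CPM in the other groups. The epithelial list summed to 157 to 162 CPM in proliferating cells, 390 to 394 CPM with doxycycline, 83.9 to 87.0 CPM in senescent cells and 463 to 498 CPM in those with doxycycline, nearly all of it KRT18, with EPCAM and KRT5 at or near 0. The part of these shifts in the results below was not tested.

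The 41 genes together took 0.147% and 0.151% of all counts in proliferating cells, 0.134% and 0.132% with doxycycline, 0.741% and 0.723% in senescent cells and 0.346% and 0.334% in senescent cells with doxycycline. In bulk RNA, fewer cells expressing a gene and less RNA per cell cannot be told apart. The heat map of levels by library shows the same order in most genes, with senescent cells highest, senescent cells with doxycycline next and both proliferating groups lowest.

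**Figure D1:**
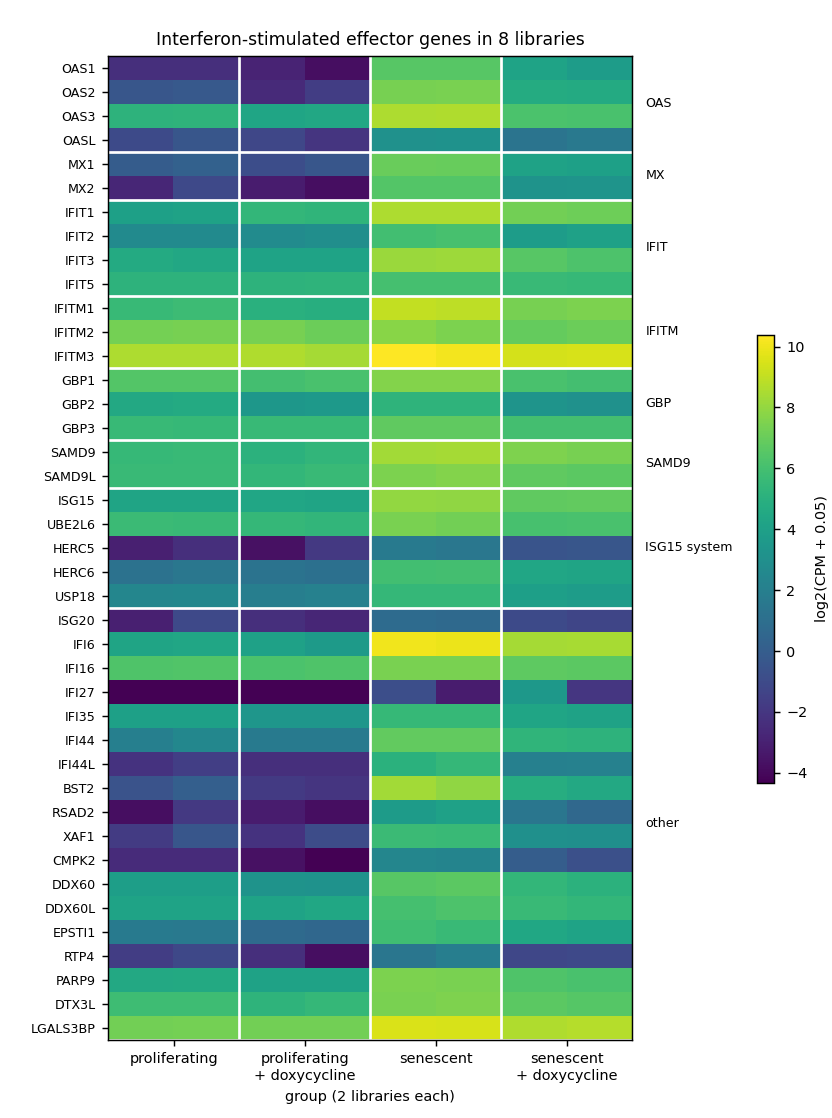
Level of each of the 41 genes (rows, by family) in each of the 8 libraries (columns, 2 per group), as log2 of CPM plus an offset of 0.05. Colours are brightest in the senescent libraries, and IFI27 is at 0 counts in the 4 proliferating libraries.

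Bleomycin without doxycycline raised nearly the whole set. By edgeR's quasi-likelihood test with Benjamini-Hochberg adjustment over 17155 genes, 40 of the 41 genes were higher in senescent than in proliferating cells and none was lower (0 at an unadjusted p under 0.05, and 0 with limma-voom and with DESeq2). Of all genes tested 29.8% were called higher and 29.4% lower. The median log2 change was 3.32, or 3.27 with IFI27 set by a floor of 3 counts in proliferating cells, against 0.01 over all genes. In all 41 genes both senescent libraries were above both proliferating libraries. The share of all genes tested whose libraries part in this way was not counted, here or in the comparisons below.

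The MX and OAS families rose most, with median log2 changes of 7.67 and 5.88. MX1 went from 0.903 and 1.13 CPM to 130 and 125 CPM, a log2 change of 6.97 (SE 0.16, adjusted p = 6.40e-15). MX2, a nuclear-envelope relative of MX1 that restricts HIV, went from 0.0976 and 0.426 CPM to 87.6 and 85.9 CPM (log2 8.37, SE 0.35). Both MX genes moved from about 1 CPM or less to levels near 100 CPM, and the replicate libraries of the senescent group lay close together.

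The OAS genes differed more in where they started than in where they ended. OAS1 had 0.146 and 0.150 CPM in proliferating cells and 93.1 and 94.3 CPM in senescent cells (log2 9.27, SE 0.41), the largest fitted rise of the set. OAS2 went from 0.708 and 0.801 CPM to 166 and 173 CPM (log2 7.81, SE 0.17). OAS3, the member that binds long double-stranded RNA, was already at 35.8 and 37.8 CPM in proliferating cells and reached 381 and 394 CPM (log2 3.40, SE 0.08). The 3 genes lie side by side on chromosome 12, from 112906962 (OAS1) to 113011723 (OAS2). OASL, a catalytically inactive relative that helps RIG-I signalling and lies apart at 121017761 to 121039246 on the same chromosome, rose from 0.439 and 0.701 CPM to 8.56 and 9.05 CPM (log2 3.94, SE 0.28).

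Of the IFIT family IFIT1, IFIT2 and IFIT3 rose at least 10.0-fold, and IFIT5 rose 1.84-fold. IFIT1 went from 16.2 and 17.4 CPM to 380 and 381 CPM (log2 4.50, SE 0.08). IFIT2 went from 6.46 and 6.58 CPM to 61.7 and 69.1 CPM (log2 3.32, SE 0.11), and IFIT3 from 24.8 and 22.2 CPM to 286 and 294 CPM (log2 3.62, SE 0.09). IFIT5, which binds RNA with a bare triphosphate end, went from 35.7 and 36.6 CPM to 66.6 CPM in both libraries (log2 0.88, SE 0.08). The family median was 3.47. IFIT1 (chromosome 10, 89392623 to 89406487, plus strand) lies with IFIT2 and IFIT3 inside the span that RefSeq gives LIPA, a lysosomal lipase gene on the minus strand (89213572 to 89414679). GENCODE v29 lists no exon shared by IFIT1 and LIPA. The counts of IFIT1 are uncertain, since no source used here gives the strand option of the counting. LIPA itself rose from 54.6 and 56.9 CPM to 92.5 and 96.2 CPM.

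The IFITM family spanned a wide range within 1 cluster on chromosome 11, from 307816 (IFITM2) to 320860 (IFITM3). IFITM1, which sits mainly at the cell surface, rose from 48.3 and 54.4 CPM to 515 and 477 CPM (log2 3.27, SE 0.09). IFITM3, the endosomal member best known for blocking influenza virus, rose from 374 and 377 CPM to 1321 and 1107 CPM (log2 1.69, SE 0.10). IFITM2 stood at 155 and 166 CPM and at 214 and 178 CPM (log2 0.29, SE 0.11, adjusted p = 0.035). The call of IFITM2 did not hold with total counts as the only scaling (log2 0.11, adjusted p = 0.345), without the first proliferating library (0.24, 0.185), without the second (0.33, 0.0647) or without the first senescent library (0.15, 0.307). The 3 genes are close paralogs, so reads may be split between them.

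The GBP and SAMD9 families, clustered on chromosomes 1 and 7, were expressed before treatment and had median log2 changes of 1.20 and 2.36, against 1.69 for IFITM. GBP1 went from 85.8 and 86.8 CPM to 200 and 197 CPM (log2 1.20, SE 0.08), GBP2 from 23.6 and 24.9 CPM to 38.1 and 37.1 CPM (log2 0.63, SE 0.09) and GBP3 from 48.3 and 46.6 CPM to 110 and 112 CPM (log2 1.22, SE 0.07). SAMD9 went from 46.1 and 47.8 CPM to 316 and 339 CPM (log2 2.80, SE 0.09), and its neighbour SAMD9L from 50.1 and 49.7 CPM to 176 and 202 CPM (log2 1.92, SE 0.09). The pair had nearly the same level in proliferating cells, and SAMD9 ended higher.

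Among the other genes BST2, or tetherin, which holds budding viruses at the cell surface, stood out. It was at 0.634 and 1.03 CPM in proliferating cells and at 323 and 243 CPM in senescent cells (log2 8.41, SE 0.29, adjusted p = 3.85e-10). IFI44L went from 0.171 and 0.275 CPM to 32.9 and 43.9 CPM (log2 7.41, SE 0.32), while its neighbour IFI44 started higher, at 3.95 and 5.48 CPM, and ended at 113 and 117 CPM. IFI6, a mitochondrial and endoplasmic reticulum protein that blocks flavivirus replication, went from 19.3 and 20.5 CPM to 1068 and 962 CPM (log2 5.67, SE 0.11). RSAD2, or viperin, and CMPK2 lie next to each other on chromosome 2 and work in the same nucleotide pathway. RSAD2 was at 0.0244 and 0.225 CPM against 13.2 and 17.1 CPM, and CMPK2 at 0.122 and 0.125 CPM against 5.21 and 4.95 CPM. Both were low even in senescent cells, where they rose.

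The ISG15 system, which attaches a ubiquitin-like protein to its targets, was called higher in each of its 5 genes in the set. ISG15, the modifier, rose from 18.8 and 19.1 CPM to 252 and 244 CPM (log2 3.71, SE 0.08). UBE2L6, its conjugating enzyme, rose from 51.7 and 50.3 CPM to 169 and 150 CPM, and HERC5, its ligase, from 0.0732 and 0.150 CPM to 3.27 and 2.80 CPM. HERC6 rose from 2.29 and 2.73 CPM to 60.0 and 62.2 CPM, and USP18, which removes ISG15 and damps the type I receptor, from 5.22 and 5.46 CPM to 43.3 and 44.9 CPM. The main human ligase HERC5 thus remained the lowest of the 5 in CPM. UBA7, a gene of the same system outside the set, rose less, from 20.8 and 22.9 CPM to 28.8 and 30.2 CPM (log2 0.43, SE 0.10). It was called lower with bleomycin in doxycycline (log2 -0.79) and with doxycycline in senescent cells (log2 -1.855).

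The remaining genes rose by amounts over a wide range. IFI16, a DNA sensor, had a log2 change of 1.08, IFI35 of 1.50, DTX3L of 1.65, its partner PARP9 of 2.86, DDX60L of 1.97, DDX60 of 2.72 and LGALS3BP of 2.22. EPSTI1 had 4.13 and XAF1 6.69. ISG20, an exonuclease, and RTP4 rose by 2.70 and 3.25 on the log2 scale from under 1 CPM. Exons of XAF1 overlap those of PRAL on the other strand over 69.9% of their length, so its reads cannot be told apart from PRAL reads without the strand option. IFI27 had no counts in the 4 proliferating libraries, 19 and 2 counts in the senescent libraries and 443 and 7 counts in those with doxycycline. Against a floor of 3 counts over the group it was at least 8.25-fold higher in senescent cells without doxycycline and at least 150-fold higher with it, and it was called in neither comparison. Nearly all of its counts came from 1 library of each pair. It was called with bleomycin in doxycycline, and with doxycycline in senescent cells, once the second library of senescent cells with doxycycline was left out (adjusted p = 0.00933 and 0.0225), and with bleomycin without doxycycline once the first was (0.0171). In these fits the lone library left in that group is assumed to vary like the other groups. DESeq2 also called it with bleomycin in doxycycline (0.0104).

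Per kilobase of exon, the scale on which genes can be compared, IFI6 led in senescent cells with 1173 CPM per kb, followed by IFITM3 with 1002 and IFITM1 with 477. LGALS3BP (280.2 ± 12.3, SD), BST2 (277 ± 55.5) and ISG15 (263 ± 5.83) came next and lay within the spread of the BST2 libraries. In proliferating cells the order was IFITM3 (310.1), IFITM2 (152), LGALS3BP (60.2) and IFITM1 (49.4), and in senescent cells with doxycycline it was IFITM3 (577), IFI6 (396), IFITM1 (161 ± 8.42, SD) and LGALS3BP (159.6 ± 9.75), the last 2 within their spread. IFITM3 was thus first or second in each of these groups, while IFI6 rose from 23.04 CPM per kb in proliferating cells to the first place in senescent ones.

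**Figure D2:**
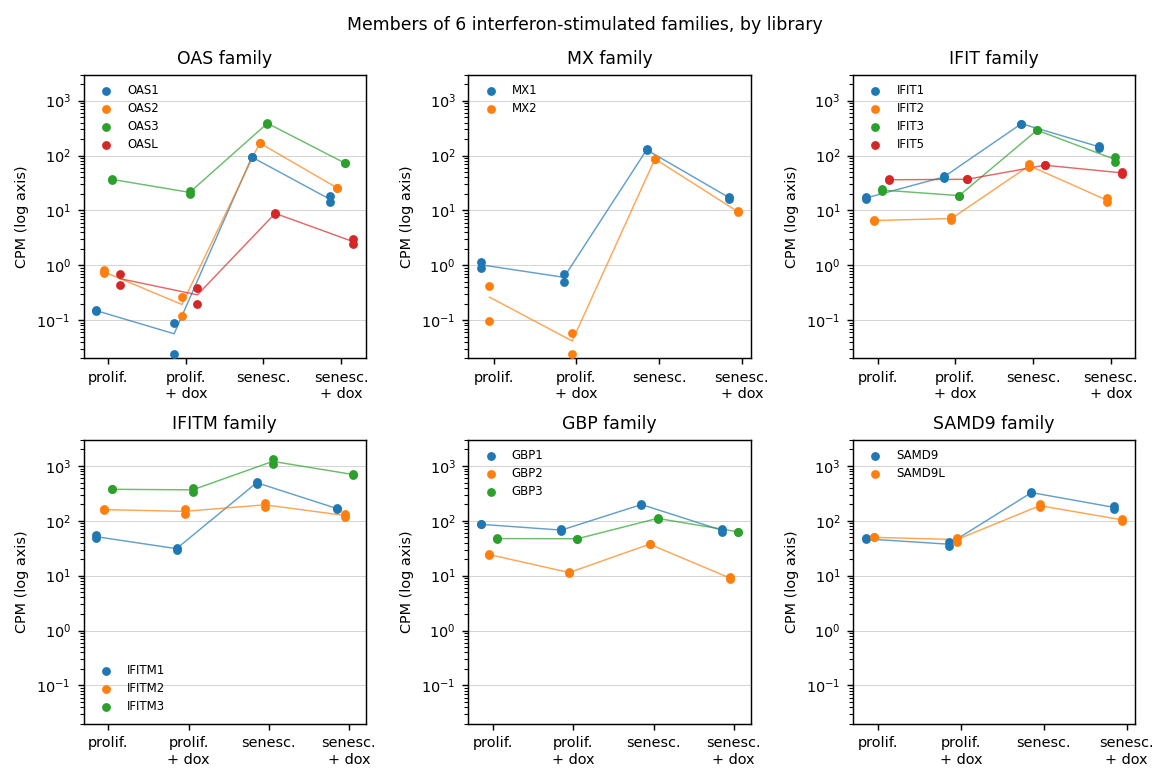
CPM (log axis) of the members of the OAS, MX, IFIT, IFITM, GBP and SAMD9 families in the 4 groups; each point is 1 library and lines join group means. OAS1, OAS2, MX1 and MX2 start near or under 1 CPM, whereas the IFITM, GBP and SAMD9 genes start above 10 CPM and move less.

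In cells given doxycycline, bleomycin again raised most of the set, by less. Senescent cells with doxycycline were higher than proliferating cells with doxycycline in 37 of the 41 genes and lower in 1, GBP2, with IFI27, IFITM2 and GBP1 not called. Of all genes tested 26.8% were called higher and 28.7% lower. The median log2 change was 2.20, against -0.01 over all genes. The comparisons of bleomycin with and without doxycycline share no library. Over the 40 genes other than IFI27 their log2 changes had a Pearson r of 0.964 and a Spearman rho of 0.953, as a description across genes, which are not independent replicates. The change was smaller with doxycycline in 39 of the 40, with a median gap of -0.94, and CMPK2 was the exception.

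OAS1 was again near the top, going from 0.0882 and 0.0243 CPM to 18.2 and 14.0 CPM (log2 8.15, SE 0.70). OAS2 went from 0.118 and 0.267 CPM to 26.0 and 25.1 CPM (log2 6.98, SE 0.32), and BST2 from 0.235 and 0.194 CPM to 28.2 and 23.1 CPM (log2 6.89, SE 0.53). Their ratio remained large, with lower levels than without doxycycline in both states. MX2 had 3 counts over the proliferating libraries with doxycycline and 712 in the senescent ones, a ratio of 238 with a 95% counting interval of 81.1 to 1156. RSAD2 had 3 and 159 counts (ratio 53.1, 17.9 to 260.3), and CMPK2 had 1 and 58 counts (ratio 58.1, 10.03 to 2335). These intervals cover counting error only and are wide because of the low counts in proliferating cells.

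The families kept their order apart from IFIT and SAMD9, which changed places. Median log2 changes with doxycycline were 6.28 for MX, 5.11 for OAS, 1.71 for SAMD9, 1.47 for IFIT, 0.93 for IFITM and -0.01 for GBP, against 7.67, 5.88, 2.36, 3.47, 1.69 and 1.20 without it. All members of the OAS, MX, IFIT and SAMD9 families were called higher. IFIT1 went from 42.1 and 39.1 CPM to 149 and 139 CPM (log2 1.83, SE 0.08), IFIT2 from 6.65 and 7.54 CPM to 14.0 and 16.6 CPM (log2 1.10, SE 0.12) and IFIT3 from 18.6 CPM in both to 93.7 and 77.0 CPM (log2 2.20, SE 0.10). IFIT5 rose from 36.7 and 37.1 CPM to 50.2 and 46.0 CPM. The IFIT family had a higher median than SAMD9 without doxycycline and a lower one with it.

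The GBP genes went separate ways in this comparison. GBP1 was at 64.0 and 71.5 CPM in proliferating and at 72.2 and 62.7 CPM in senescent cells with doxycycline, so its libraries overlapped (log2 -0.01, SE 0.09, adjusted p = 0.95). GBP2 was at 11.1 and 11.7 CPM against 9.60 and 8.55 CPM and fell by 0.33 on the log2 scale (SE 0.10, adjusted p = 0.0124), a call that ended with DESeq2 (adjusted p = 0.0675), with only the libraries compared (0.0522), without the second proliferating doxycycline library (0.052) and without the second senescent doxycycline library (0.0999). GBP3 rose from 46.8 and 47.5 CPM to 63.0 and 63.3 CPM (log2 0.42, SE 0.07). Among the IFITM genes IFITM1 rose from 32.5 and 29.6 CPM to 162 and 174 CPM, and IFITM3 from 394 and 340 CPM to 674 and 726 CPM. IFITM2 was at 164 and 133 CPM against 117 and 133 CPM (log2 -0.25, SE 0.11, adjusted p = 0.0705). IFITM2 passed the threshold without the second proliferating doxycycline library (log2 -0.40, adjusted p = 0.0072), without either senescent library that had no doxycycline (0.0382 and 0.0387), with no filter on low counts (0.00725) and with total counts as the only scaling (0.0456).

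**Figure D3:**
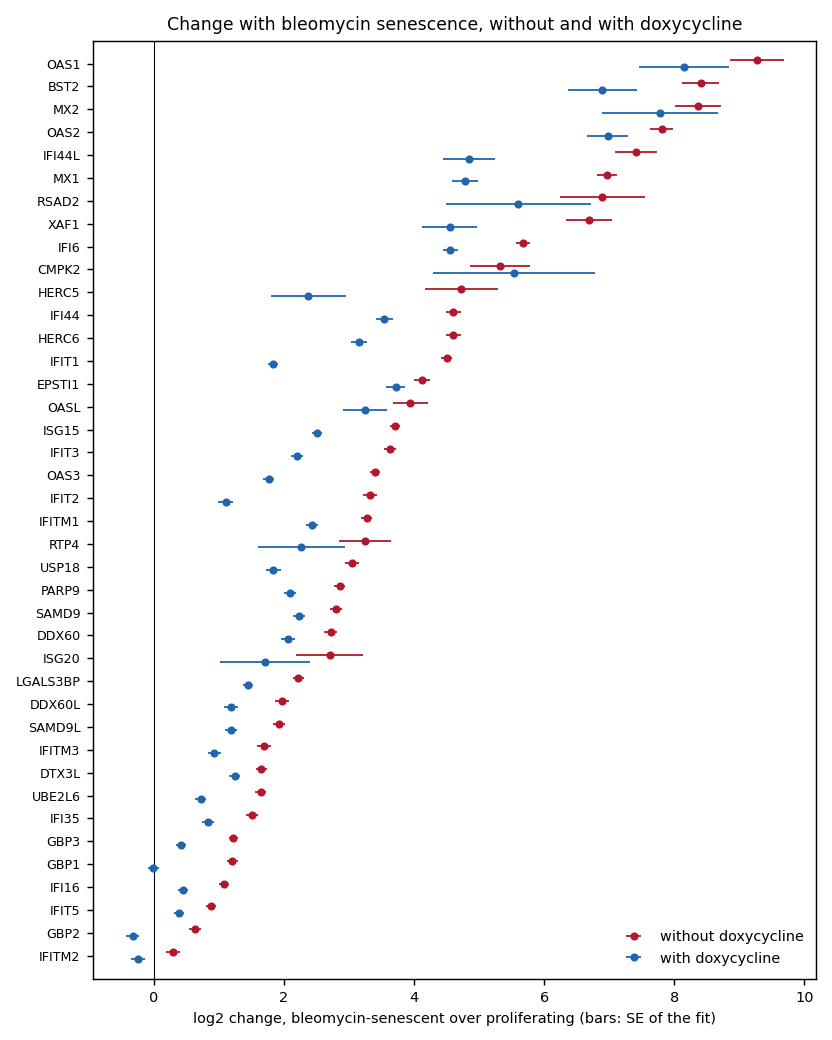
Fitted log2 change from proliferating to bleomycin-senescent cells for 40 genes (IFI27, at 0 counts in proliferating cells, is left out), without doxycycline (red) and with it (blue); bars are the SE of the fit. The blue point lies left of the red one in all but CMPK2, and the GBP1, GBP2 and IFITM2 points with doxycycline lie at or below 0.

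In senescent cells doxycycline lowered the whole set apart from IFI27. By edgeR's adjusted p 40 of 41 genes fell and none rose (0 at an unadjusted p under 0.05, 0 with limma-voom and 0 with DESeq2), where 23.8% of all genes tested were called lower and 22.6% higher. In the same 40 genes both libraries with doxycycline were below both without it, again with no share over all genes counted. The median log2 change was -1.57, against 0.00 over all genes. The genes other than IFI27 kept between 9.07% and 72.3% of their senescent level in CPM, with a median of 33.3%. All 40 calls held in every alternative that tested the gene. A minimum mean log2 CPM of 1 left 36 of them to be tested and called.

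BST2 fell furthest, from 323 and 243 CPM to 28.2 and 23.1 CPM, so that 9.07% was left (log2 -3.46, SE 0.15, adjusted p = 6.39e-08). MX2 fell from 87.6 and 85.9 CPM to 9.29 and 9.70 CPM (log2 -3.19, SE 0.13) and MX1 from 130 and 125 CPM to 17.7 and 16.2 CPM (log2 -2.90, SE 0.09). IFI44L fell from 32.9 and 43.9 CPM to 4.17 and 4.42 CPM (log2 -3.16, SE 0.15). In MX1 and MX2 the gap between groups was many times the gap between replicates. The senescent replicates of BST2 and IFI44L lay further apart. RTP4, a chaperone for receptor trafficking, fell from 2.66 and 3.77 CPM to 0.382 and 0.419 CPM, and RSAD2 from 13.2 and 17.1 CPM to 2.67 and 1.51 CPM. Both ended at low levels with few counts.

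By the family sum in CPM, senescent cells with doxycycline kept 12.4% for MX, 17.7% for OAS, 36.5% for IFIT, 40.3% for GBP, 52.1% for IFITM and 54.2% for SAMD9. Of the OAS genes 3 kept a like share, with OAS1 at 18.2 and 14.0 CPM (17.2% left), OAS2 at 26.0 and 25.1 CPM (15.1%) and OAS3 at 73.0 and 72.0 CPM (18.7%), while OASL at 2.42 and 2.99 CPM kept 30.7%. The IFIT genes were more spread out. IFIT2 kept 23.4%, IFIT3 29.4%, IFIT1 37.9% and IFIT5 72.3% of the level without doxycycline. IFIT5 thus had both the smallest rise of its family with bleomycin and the smallest fall with doxycycline (log2 -0.47, SE 0.08).

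GBP2, the GBP gene that bleomycin raised least, fell most with doxycycline, to 9.60 and 8.55 CPM (24.1% left, log2 -2.05, SE 0.10). That is below its 23.6 and 24.9 CPM in untreated proliferating cells, a comparison that was not tested. GBP1, at 72.2 and 62.7 CPM (34.0% left), was also below its untreated proliferating level of 85.8 and 86.8 CPM, and GBP3 kept 57.0%. IFITM1 kept 33.8%, IFITM3 57.6% and IFITM2 64.0%. SAMD9 went to 185 and 166 CPM and SAMD9L to 108 and 99.9 CPM, with 53.6% and 55.1% left. In the ISG15 system ISG15 kept 45.7% and UBE2L6 43.9%, while USP18 (32.8%), HERC6 (32.3%) and HERC5 (22.9%) kept less.

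In proliferating cells the same treatment had a smaller and less uniform effect. With doxycycline 21 of the 41 genes fell, 1 rose and 19 were not called, where 10.4% of all genes tested were called lower and 12.6% higher. The median log2 change was -0.46, against 0.00 over all genes. Both libraries with doxycycline were below both without it in 27 genes and above both in 5. The count of falls was less stable than in senescent cells. It was 10 without the second proliferating library, and 9 of the 21 calls, those of OAS2, OAS3, IFITM1, GBP2, IFI35, DDX60, EPSTI1, PARP9 and DTX3L, held in every alternative that tested the gene.

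OAS2 fell from 0.708 and 0.801 CPM to 0.118 and 0.267 CPM (log2 -1.90, SE 0.35, adjusted p = 0.000382), and OAS3 from 35.8 and 37.8 CPM to 19.9 and 22.7 CPM (log2 -0.79, SE 0.09). OAS1 and OASL were under 1 CPM throughout and were not called (adjusted p = 0.18 and 0.0591), though OASL was called without the first proliferating library (0.0416), without the first proliferating doxycycline library (0.0283) and with no filter (0.0495). IFITM1 fell to 32.5 and 29.6 CPM (log2 -0.73, SE 0.09), while IFITM2 and IFITM3 had changes of -0.11 and -0.03 that were not called. GBP2 fell from 23.6 and 24.9 CPM to 11.1 and 11.7 CPM (log2 -1.09, SE 0.10). GBP1 fell by 0.35 on the log2 scale and GBP3 was not called (-0.01). SAMD9 fell by 0.32, and SAMD9L (-0.13) was not called. The calls of GBP1 and SAMD9 did not hold without either proliferating library (adjusted p of 0.0611 and 0.0798 for GBP1, 0.0972 and 0.177 for SAMD9) or without the first proliferating doxycycline library (0.0572 and 0.189).

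BST2 fell from 0.634 and 1.03 CPM to 0.235 and 0.194 CPM (log2 -1.94, SE 0.58) and RTP4 from 0.268 and 0.401 CPM to 0.147 and 0.0243 CPM (log2 -2.01, SE 0.67). MX1 fell from 0.903 and 1.13 CPM to 0.500 and 0.704 CPM (log2 -0.73, SE 0.24). MX2 went from 21 counts to 3, a ratio of 6.51 with a counting interval of 1.94 to 34.1, and CMPK2 from 10 counts to 1 (9.30, 1.32 to 403). RSAD2 went from 10 counts to 3 (3.10, 0.798 to 17.5) and was not called. These genes were at or under 1 CPM in proliferating cells with or without doxycycline, so their falls rest on few counts. Without the second proliferating library none of the calls of BST2, RTP4, MX1, MX2 and CMPK2 held (adjusted p = 0.0769, 0.161, 0.291, 0.524 and 0.0999). Without the first proliferating library that of CMPK2 did not (0.0935). Leaving out the first proliferating doxycycline library ended those of BST2, MX1 and MX2 (0.211, 0.246 and 0.0579), and leaving out the second ended those of BST2, RTP4, MX2 and CMPK2 (0.246, 0.193, 0.138 and 0.228).

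IFIT1 went against the rest. It rose from 16.2 and 17.4 CPM to 42.1 and 39.1 CPM with doxycycline in proliferating cells (log2 1.27, SE 0.08, adjusted p = 2.89e-08). LIPA, whose RefSeq span holds IFIT1, rose from 54.6 and 56.9 CPM to 83.7 and 86.9 CPM in the same comparison (log2 0.61, SE 0.07). In senescent cells both fell, IFIT1 by 1.40 and LIPA by 0.34 on the log2 scale. LIPA thus moved in the same direction as IFIT1 with doxycycline in each state. With bleomycin both rose without doxycycline, but in cells given doxycycline IFIT1 rose (log2 1.83) and LIPA fell (log2 -0.19). The part of LIPA reads in the IFIT1 count was not tested. IFIT2 and IFIT3 lie in the same span and did not rise with it. IFIT2 was at 6.65 and 7.54 CPM with doxycycline (log2 0.12, SE 0.12, adjusted p = 0.514), and IFIT3 fell to 18.6 CPM in both libraries (log2 -0.34, SE 0.10, adjusted p = 0.0231), a call that ended without the first proliferating library (0.248) and without either proliferating doxycycline library (0.0715 and 0.0563). The rise of IFIT1 held in every fit that tested it.

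The effect of doxycycline differed between the states in most of the set. The test of the difference itself, the change in senescent cells minus that in proliferating cells, called 29 of 41 genes lower and none higher (0 at an unadjusted p under 0.05, 0 with limma-voom and 0 with DESeq2), where 11.8% of all genes tested were called lower and 8.07% higher. The median difference was -0.92 on the log2 scale, against -0.03 over all genes. The same contrast is also the change with bleomycin in doxycycline minus that without it.

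IFIT1 had the largest difference, -2.67 (SE 0.11), since it rose in 1 state and fell in the other. IFI44L (-2.56, SE 0.51), IFIT2 (-2.22, SE 0.16), MX1 (-2.18, SE 0.25), XAF1 (-2.14, SE 0.55) and OAS3 (-1.63, SE 0.12) followed among the genes called. HERC5, at -2.36 (SE 0.80, adjusted p = 0.0514), was not called, but was without the first proliferating doxycycline library (0.00559) and with no filter (0.0158). XAF1 moved from 0.244 and 0.726 CPM to 0.176 and 0.485 CPM in proliferating cells and from 51.0 and 49.3 CPM to 8.27 and 7.97 CPM in senescent cells. Its call in the difference (adjusted p = 0.0269) did not hold without the second proliferating doxycycline library (log2 -1.20, adjusted p = 0.366), nor without any 1 of the senescent libraries, first or second, with or without doxycycline (0.0833, 0.0746, 0.0738 and 0.0686), nor with DESeq2 (0.0612). That of IFI44L ended without the second proliferating doxycycline library (0.0502). All IFIT, IFITM, GBP and SAMD9 members were called in the difference, with family medians of -1.82, -0.76, -0.96 and -0.65. With total counts only IFIT5, IFITM2 and SAMD9 were not called (adjusted p = 0.0805, 0.0798 and 0.0582), and IFITM2 was not called without the first library of any group (0.0954, 0.0633, 0.0895 and 0.14).

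The OAS and MX families, which fell most in senescent cells, had 1 call each here, those of OAS3 and MX1. OAS1 (-1.12, SE 0.81), OAS2 (-0.83, SE 0.36), OASL (-0.70, SE 0.44) and MX2 (-0.59, SE 0.96) did not, and neither did BST2 (-1.52, SE 0.60, adjusted p = 0.147). BST2 passed without the second senescent library (0.0312), with DESeq2 (0.00633) and with no filter (0.00955). These genes were under or near 1 CPM in proliferating cells, where the SE of the doxycycline effect was large. EPSTI1 was better measured, with falls of 1.02 and 1.44 on the log2 scale in proliferating and senescent cells and a difference of -0.41 (SE 0.20, adjusted p = 0.159).

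**Figure D4:**
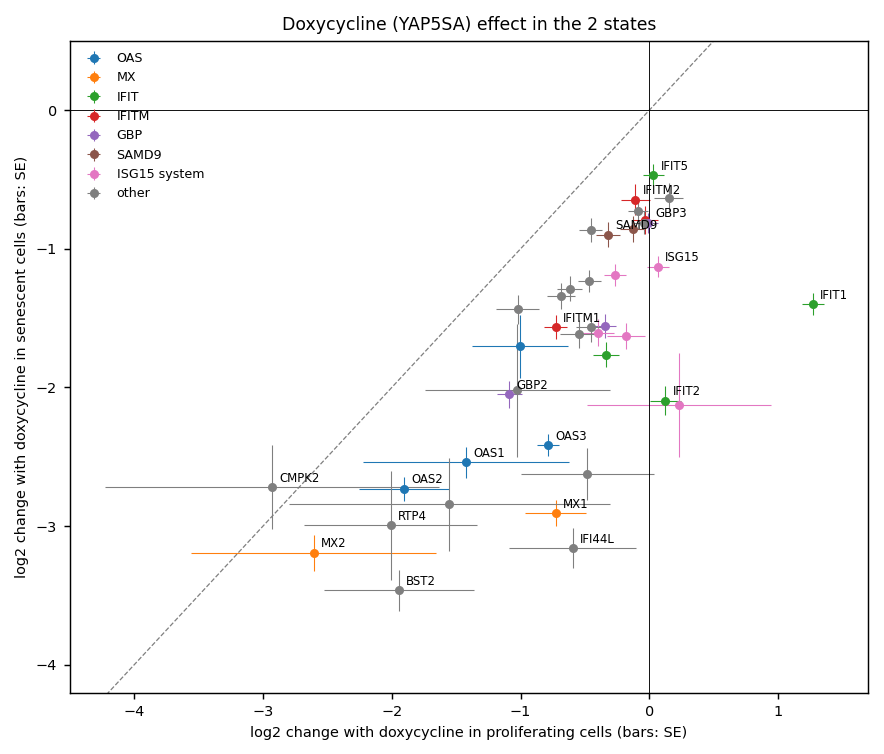
Fitted log2 change with doxycycline in proliferating cells (horizontal axis) and in senescent cells (vertical axis) for 40 genes (IFI27 is left out); bars are the SE of the fit, and the dashed line marks equal change. All points but CMPK2 lie below the line, IFIT1 lies alone at the right, and MX2, BST2, RTP4 and CMPK2 have wide bars for proliferating cells.

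The other genes of the pathway give the setting of these changes. Interferon genes themselves were hardly detected. IFNB1 had at most 2 counts in a library, and IFNA2, IFNK, IFNG, IFNL1, IFNL2 and IFNL3 had 0 counts in all 8 libraries, where 3 counts over a group would be 0.0371 to 0.0437 CPM. IFNW1 and IFNA1 had at most 1 and 9 counts in a library. IFNE, the 1 interferon gene with enough counts to be tested, fell with bleomycin, from 0.781 and 1.05 CPM to 0.420 and 0.425 CPM (log2 -1.11, SE 0.38). Interferon transcripts at levels under this limit would not be detectable at this depth.

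Of 14 genes for receptors and JAK-STAT signalling 13 were tested, of which 8 rose and 3 fell with bleomycin without doxycycline (29.8% and 29.4% of all genes), and 9 fell with doxycycline in senescent cells (23.8% of all genes). With doxycycline in proliferating cells 7 fell (10.4% of all genes). STAT2 went from 87.0 and 89.1 CPM to 176 and 208 CPM with bleomycin (log2 1.12, SE 0.08) and to 131 and 129 CPM in senescent cells with doxycycline (log2 -0.56, SE 0.08). It was not called with doxycycline in proliferating cells (log2 -0.01, adjusted p = 0.93). IRF9 rose with bleomycin in both settings, by 1.56 without and 1.79 with doxycycline, and its doxycycline effects of -0.63 and -0.40 had a difference of 0.22 (SE 0.11, adjusted p = 0.19) that was not called. SOCS1 and SOCS3, feedback inhibitors of JAK kinases, fell with bleomycin, by 1.44 and 1.26, and SOCS1 fell further with doxycycline in senescent cells, by 1.86. With doxycycline in proliferating cells SOCS1 and SOCS3 also fell (log2 -1.10 and -0.53). The difference between the states was called for neither (edgeR adjusted p = 0.062 and 0.0878). With bleomycin they moved in the opposite direction to the effector genes.

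Of 8 nucleic acid sensors 7 were tested, and 6 rose and 1 fell with bleomycin without doxycycline, beside the same 29.8% and 29.4% of all genes. IFIH1, or MDA5, rose from 2.88 and 4.23 CPM to 80.2 and 79.1 CPM (log2 4.49, SE 0.14), DDX58, which encodes RIG-I, from 21.4 and 19.8 CPM to 192 and 205 CPM (log2 3.27, SE 0.08) and DHX58 by 2.25. CGAS, the sensor of cytosolic DNA, was the 1 that fell, from 8.73 and 9.31 CPM to 4.28 and 3.86 CPM (log2 -1.15, SE 0.14). With doxycycline in senescent cells 6 fell (23.8% of all genes) and CGAS was not called (-0.04). TLR3 had the largest fall, from 1.82 and 1.76 CPM to 0.356 and 0.196 CPM (log2 -2.67, SE 0.38), followed by IFIH1 (-1.82) and DDX58 (-1.41). In proliferating cells 3 sensors fell with doxycycline (10.4% of all genes), TLR3 (log2 -1.47) and IFIH1 (-0.75) among them. The difference between the states was called for IFIH1 (edgeR adjusted p = 0.00329) but not for TLR3 (0.152).

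The inducing factors, of which 6 of 7 were tested, were 3 up and 2 down with bleomycin without doxycycline (29.8% and 29.4% of all genes), and all 6 were lower with doxycycline in senescent cells (23.8% of all genes). IRF7, the amplifier of interferon induction, rose from 0.268 and 0.300 CPM to 5.91 and 2.80 CPM (log2 3.92, SE 0.41) and fell to 1.53 and 1.15 CPM (log2 -1.70, SE 0.32). IRF3 fell by 0.62 with bleomycin and IRF1 rose by 0.55. With doxycycline in senescent cells IKBKE, a kinase that activates IRF3 and IRF7, fell by 1.57 and IRF1 by 1.38. In proliferating cells doxycycline lowered 2 of the 6 (10.4% of all genes), IKBKE (log2 -0.58) and IRF1 (-0.62). The difference between the states was called for both (edgeR adjusted p = 1.79e-04 and 6.89e-04).

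Among 23 other interferon-stimulated genes 20 were tested, and 17 rose and 1 fell with bleomycin without doxycycline (29.8% and 29.4% of all genes), with a median log2 change of 1.90. With doxycycline in senescent cells 18 fell (23.8% of all genes), with a median of -0.99. GBP4, a relative of GBP1, rose from 0.146 and 0.0751 CPM to a mean of 2.25 CPM in senescent cells and fell to 0.153 and 0.140 CPM with doxycycline. GBP5 had 0 and 3 counts in the proliferating libraries without doxycycline and reached 0.896 and 0.760 CPM in senescent cells. With doxycycline it had 0 counts in both proliferating libraries and 0.178 and 0.196 CPM in senescent cells. PARP14 rose by 2.60 and fell by 1.69. Like IFIT1, TRIM22, an antiviral ubiquitin ligase, rose with doxycycline in proliferating cells, from 36.4 and 36.6 CPM to 67.4 and 70.4 CPM (log2 0.92, SE 0.08), and fell in senescent cells, from 139 and 146 CPM to 90.1 and 99.2 CPM. Of the 20 genes of its list that were tested, it was the 1 that rose with doxycycline in proliferating cells, and 5 fell. Of all genes tested 12.6% were called higher there and 10.4% lower.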

How the data were processed

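Raw counts of reads per gene, as deposited by the authors, were the only input. The tools that the submitters' processing notes list are Trimmomatic 0.36, HISAT2 2.1.0 and featureCounts 1.6.3, and hg38 is the build; the annotation and the strand option were not given in the sources used here. Genes passing edgeR's filterByExpr (17155 of 54628, all 41 members among them) were scaled by TMM and fitted with edgeR 4.0.16 (R 4.3.3) in 1 robust quasi-likelihood model of 4 groups, which leaves 4 residual degrees of freedom. The 5 contrasts were tested two-sided, with a threshold of 0.05 on p-values adjusted by Benjamini-Hochberg over all genes tested. Log2 changes and SEs are those of the fit, and the share of a level left is a ratio of mean CPM. The members and the pathway lists were chosen with earlier results of these data known. All members may be named; library values are given for the 6 families, for the 6 largest changes called per comparison and for members going against the rest. List genes are named where called with one of the 3 largest changes of their list, or where they are an interferon gene, STAT2 or IRF9; 1 list gene that the rule names is not reported here. SOCS3 and CGAS fall outside this rule and were named after their values were seen, as were the values of LIPA, set beside those of IFIT1. Lists were described by counts, without a test. Positions are RefSeq's on GRCh38.p14.

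Alternatives were the size factors of DESeq2, total counts only, limma-voom (limma 3.58.1), DESeq2 1.42.0, no filter, a minimum mean log2 CPM of 1, a fit of the compared libraries alone, the replicate number of the title or of the description as a block, an adjusted p of 0.01, each library left out, and the set without IFIT1 and the IFITM genes. Same-numbered libraries deviated together little (residual r from -0.0121 to 0.159), so libraries were not paired. Replicates differed beyond counting error (chi-square per degree of freedom 3.44 to 17.8). The test was also run on simulated data for bleomycin without doxycycline, with the same spread in every gene and group. Replicate spread here differed between groups, so that run does not measure the error rate of these calls.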

Additional observations from a re-analysis of the deposited data

Results flagged for a closer look

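The doxycycline effect was tested for a difference between senescent and proliferating cells, and 29 members passed, all with the more negative change in senescent cells. In log2 units the difference was -2.67 for IFIT1, -2.56 for IFI44L, -2.22 for IFIT2, -2.18 for MX1, -2.14 for XAF1 and -1.63 for OAS3. It was -1.45 for HERC6, -1.43 for IFIT3, -1.21 for USP18, -1.21 for GBP1, -1.20 for ISG15, -1.11 for IFI6 and -1.07 for IFI44. Between -1 and -0.7 lay GBP2 (-0.96), UBE2L6 (-0.92), IFITM1 (-0.84), GBP3 (-0.80), DDX60L (-0.78), LGALS3BP (-0.77), PARP9 (-0.77), IFITM3 (-0.76) and SAMD9L (-0.73). The smallest were those of IFI35 (-0.67), DDX60 (-0.66), IFI16 (-0.64), SAMD9 (-0.58), IFITM2 (-0.54), IFIT5 (-0.50) and DTX3L (-0.41). The calls of DTX3L, IFITM2, XAF1, IFI44L, IFIT5 and SAMD9 were lost under at least 1 alternative.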

How the results depend on the processing

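The 40 falls with doxycycline in senescent cells held in every alternative that tested the gene, as did 39 of the 40 rises with bleomycin without doxycycline (IFITM2 was the exception), 35 of 37 with doxycycline (not ISG20 and RTP4), 9 of 21 falls with doxycycline in proliferating cells and 23 of 29 calls in the difference. A minimum mean log2 CPM of 1 leaves low members untested, and 36 were then lower in senescent cells with doxycycline and 36 higher with bleomycin without it. The cause of each other change given here was not tested. The count of members lower with bleomycin in doxycycline (1) was 2 with total counts only and with no filter, 0 with DESeq2, with only the libraries compared and at an adjusted p under 0.01, and 0 to 2 with a library left out. The 1 member higher with doxycycline in proliferating cells, IFIT1, left 0 without the uncertain members by construction. The 21 falls there were 10 at an adjusted p under 0.01 and 10 to 21 with a library left out. In senescent cells IFI27 made 1 rise instead of 0 with the title number and with the description number as a replicate block, and 0 to 1 with a library left out (1 without the second doxycycline library). Neither block moved another count by over 1.5 times. The numbers were not taken to pair the libraries, though with 2 libraries per group the residual correlations cannot exclude pairing. In single genes the title block called IFI27 in both bleomycin comparisons (adjusted p = 1.04e-04 without doxycycline and 4.12e-09 with it), OASL with doxycycline in proliferating cells (0.0471), and BST2 (0.0271) and HERC5 (0.0364) but not XAF1 (0.0516) in the difference. The description block called IFI27 with bleomycin in doxycycline (3.33e-09) and lost IFITM2 with bleomycin without it (0.302) and in the difference (0.123), and, with doxycycline in proliferating cells, CMPK2 (0.0732), RTP4 (0.0525), IFIT3 (0.125), SAMD9 (0.0947), UBE2L6 (0.0724) and USP18 (0.105). Family medians near 0 changed sign. For GBP with bleomycin in doxycycline the median was 0.0353 with DESeq2's size factors, 0.0276 with DESeq2, 0.0608 with a minimum mean log2 CPM of 1, 0.00203 with only the libraries compared, 0.0664 without the second proliferating doxycycline library, and -0.11 to 0.0837 over all libraries left out (0.0837 without the second senescent doxycycline library). For IFITM with doxycycline in proliferating cells it was -0.26 to 0.0332 over the libraries left out (0.0332 without the second doxycycline library). Total counts only moved the median of all genes to -0.16 with bleomycin without doxycycline, 0.17 with doxycycline in senescent cells and 0.15 in the difference, and the share of calls that were higher from 50.3% to 37.1%, from 48.7% to 69.3% and from 40.7% to 70.4%; members were then 39 higher, 40 lower and 25 lower. With 2 libraries per group, members under 1 CPM in proliferating cells limit what the difference can show.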
